A study of Mus musculus with 16 samples.

Results

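The allantois is the bud of extra-embryonic mesoderm that grows from the posterior end of the gastrulating embryo, fuses with the chorion and forms the vessels of the umbilical cord and the fetal part of the placenta. Cells to which the authors had transferred the label Allantois or Allantois endothelium from a reference atlas of mouse embryos were followed here in chimeras of *Stat3* null and wild-type (WT) cells. Singlets that passed the authors' quality filter were taken, and the 2 labels were kept apart. They numbered 676 of 37841 cells, of which 556 were Allantois and 120 were Allantois endothelium, among 87 cell types and 16 libraries.

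The null cells descended from tdTomato-expressing *Stat3* null embryonic stem cells on the CD1 background, derived from mice in which a Neomycin resistance gene replaces several exons of *Stat3*. They had been injected into WT CD1 blastocysts, and the WT cells were the host cells of the same chimeras. Whole chimeric embryos of 3 stages, E7.5, E8.5 and E9.5, were dissociated, sorted on tdTomato, and counted per molecule (unique molecular identifier, UMI) with a 3′ single-cell kit. E7.5 and E8.5 libraries came from pooled embryos. Each stage had its own embryos and libraries, so a difference between stages cannot be told apart from one between embryos or libraries. At E9.5 the labels name 4 embryo pools that the genotypes share, while the study's methods describe fewer E9.5 embryos than pools, so libraries of 1 genotype may share an embryo and p-values then measure partly technical spread. The donor stem cells and the host also differ in origin and culture history as well as in *Stat3*, and these cannot be told apart. E7.5 and E8.5 each gave 2 libraries per genotype and E9.5 gave 4, called A to D within a group, where a letter is only a name. A WT cell with a tdTomato UMI was left out, which removed 8 cells of the 2 labels, and 16 null cells without a tdTomato UMI were kept.

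In the mouse the allantois arises from the posterior primitive streak under BMP signalling. Its core mesoderm expresses the T-box factor *Tbx4*, posterior *Hox* genes and caudal factors of the *Cdx* family, while part of its cells switch on *Etv2* and the VEGF receptor gene *Kdr* and form vessels in place. Fusion with the chorion needs the adhesion molecule VCAM1 on the allantois and its partner, integrin alpha 4. Donor stem cells of a chimera contribute to this mesoderm, whereas trophoblast and primitive endoderm come mainly from the host.

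Allantois cells were few in several libraries. At E7.5 the WT libraries A and B held 8 and 11 of them, and the null libraries held 29 and 1. At E8.5 the WT libraries held 43 and 104, and the null libraries 68 and 47. At E9.5 the WT libraries A to D held 23, 17, 7 and 120 Allantois cells, and the null libraries A to D held 29, 26, 9 and 14. Library D thus gave 120 of the 167 WT cells at E9.5. Allantois endothelium numbered 3 and 16 cells in the E7.5 WT libraries, 33 and 2 in the E7.5 null libraries, 8 and 34 in the E8.5 WT libraries and 8 and 10 in the E8.5 null libraries, but only 6 cells in all at E9.5. No cell barcode of these cells occurred in more than 1 library, and a cell carried between 10003 and 99964 UMIs. Levels below are counts per 1000000 UMIs (CPM), summed over the Allantois or Allantois endothelium cells of a library, and a library with 15 cells or fewer entered only where stated.

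Of the genes that mark the allantois, *Tbx4* was higher in all E8.5 and E9.5 Allantois libraries but 1 than in the other types compared, while the posterior *Hox* genes were not particular to it at E9.5. Such variable genes may themselves have guided the transfer. *Tbx4*, which is required for growth of allantoic vessels, stood at 156 and 189 CPM in the E8.5 WT libraries A and B and at 161 and 193 CPM in the null libraries. At E9.5 its level was 63.5, 48.0, 23.5 and 125 CPM in the WT libraries A to D and 100.5, 121, 83.7 and 129.7 CPM in the null libraries A to D. The 3 lowest values at E9.5 were those of WT libraries A, B and C. Averaged over 31 other types at E8.5, *Tbx4* was at 1.41 CPM, and the highest of these types was Lateral plate mesoderm at 21.3 CPM. At E9.5 the highest of 45 other types was again Lateral plate mesoderm, at 35.2 CPM, above the *Tbx4* level of WT library C. *Pitx1*, a homeobox gene of the posterior mesoderm, ranged over the E8.5 and E9.5 Allantois libraries from 173 CPM, again in E9.5 WT library C, to 612 CPM in E9.5 WT library D, and it reached 315 CPM in Lateral plate mesoderm at E8.5 and 250.5 CPM in Mesenchyme at E9.5. *Hoxa11* was at 69.7 and 46.8 CPM in E8.5 WT Allantois against 27.7 CPM in Lateral plate mesoderm, the highest other type. At E9.5 it was at 27.6, 21.8 and 60.6 CPM in WT libraries A, B and D, below the 108 CPM of Presomitic mesoderm and the 90.6 CPM of Somitic mesoderm, and *Hoxa10* too was highest in these 2 types.

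**Figure D1:**
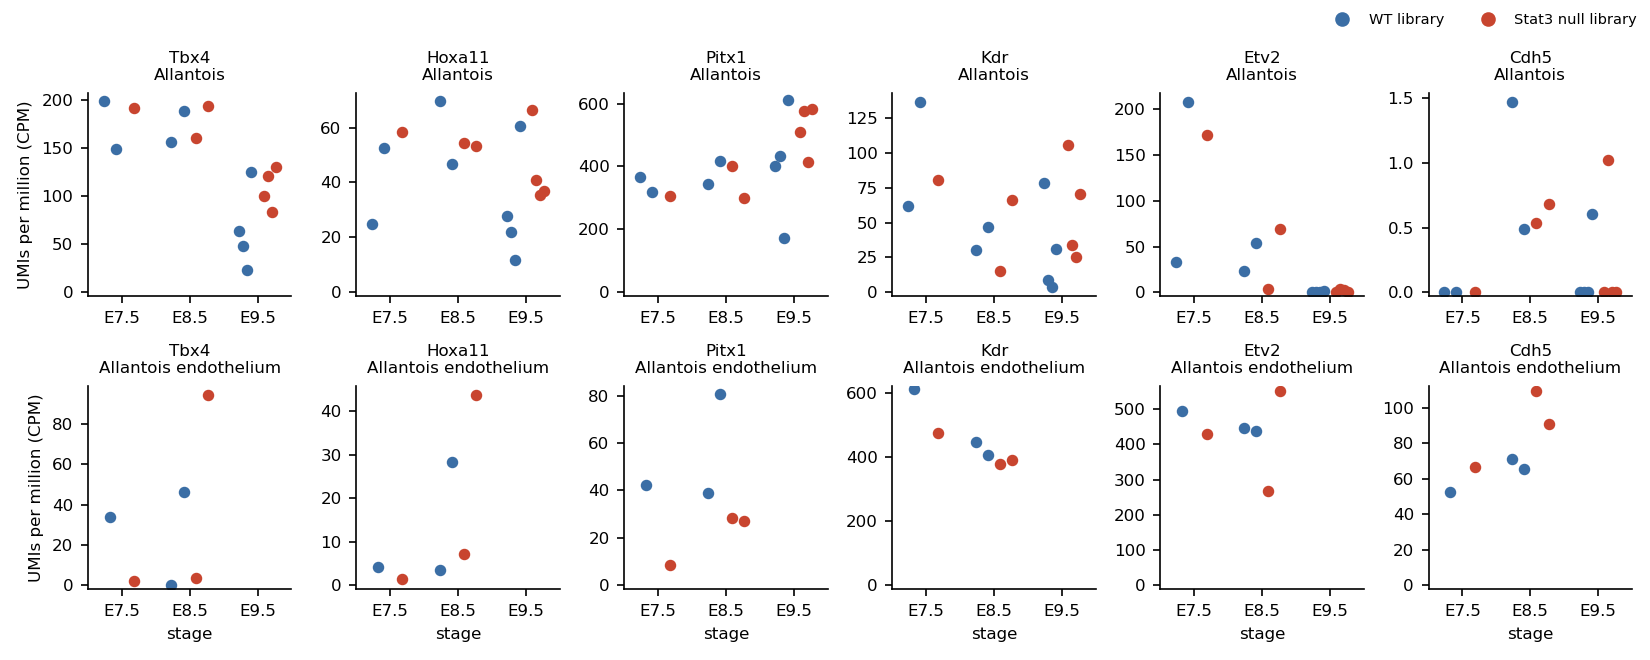
Levels of *Tbx4*, *Hoxa11*, *Pitx1*, *Kdr*, *Etv2* and *Cdh5* in CPM (linear axes that differ between panels) in Allantois cells (upper row) and Allantois endothelium cells (lower row), against embryonic stage. Each point is a library with more than 5 such cells, blue for WT and red for *Stat3* null; *Tbx4* in E9.5 WT libraries A to C lies below the 4 null libraries, and endothelial genes are high in the lower row while *Tbx4* and *Hoxa11* vary from near 0.

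Ranked by the ratio of the Allantois level to the mean of the other types with at least 50 WT cells, *Phlda2* led the genes of Allantois at E8.5 and at E9.5. In E8.5 WT libraries the first were *Phlda2*, *Tbx4*, *Plac1*, *Nxf7*, *Cdkn1c*, *Actc1*, *Sgce* and *Vcam1*. *Phlda2*, an imprinted restrictor of placental growth, reached 3793 CPM there, against a mean of 83.4 CPM in 31 other types. At E9.5 the leaders were *Phlda2*, *Acta2*, *Pitx1*, *Wnt2*, *Tbx4*, *Tagln* and *Ankrd1*, and they also included *Myl7*, *Tbx18* and *Tbx20*, which are known from heart and mesothelium. Some of these were higher in another type at E9.5, such as *Ankrd1* at 74.9 CPM in Allantois and 96.9 CPM in Cardiomyocytes FHF 1, *Myl7* at 217 and 428 CPM in Epicardium, *Tbx18* at 76.4 and 116 CPM in Epicardium, and *Tbx20* at 67.7 and 106 CPM in YS mesothelium. The E9.5 levels are means that weigh WT libraries A, B and D alike, although D held 120 cells and A and B 23 and 17. The ranking was not made with D alone, where 6 cardiac and pharyngeal markers, *Myl7* among them, summed to 51.9 CPM. The mean confidence score of the transferred label per library was 0.93 to 0.96 at E8.5 and 0.54 to 0.82 at E9.5.

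Markers of other cell types were therefore counted in the same libraries. The sum of 6 mesothelium markers (*Wt1*, *Upk3b*, *Upk1b*, *Krt19*, *Lrrn4*, *Tbx18*) lay between 50.7 and 92.5 CPM in the 4 E8.5 libraries. At E9.5 it was 632, 382 and 112 CPM in WT libraries A, B and D, and 248 and 142 CPM in null libraries A and B. The sum of 6 cardiac and pharyngeal markers (*Nkx2-5*, *Tnnt2*, *Myl7*, *Tbx5*, *Tcf21*, *Tbx1*) followed the same order at E9.5, with 696, 314 and 51.9 CPM in the WT libraries and 191 and 89.2 CPM in the null libraries, against 58.7 to 83.0 CPM at E8.5. WT libraries A and B thus stood apart from library D, and part of the calls that rest on them are given below with D alone as well. A group of 1 library has no spread of its own, so a test with D alone takes the spread from the other groups of its fit and assumes that D varies like them. All 6 mesothelium markers were detected in each of these 5 libraries at E9.5. Their part in the stage differences was not tested.

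The sum of 8 markers of extra-embryonic ectoderm and trophoblast was as high as that of the label's own markers. It lay between 675 and 1170 CPM in the 10 Allantois libraries with more than 15 cells, against 753 to 1135 CPM for 8 allantois markers. Between 2 and 5 of the 8 were detected in a library, while all allantois markers were detected in each. *Krt8*, a keratin gene of simple epithelia, held most of the sum at 575 to 1025 CPM. *Rhox5*, an X-linked homeobox gene of placenta and testis, was at 1.67 to 123 CPM, and *Cdx2*, which the allantois itself expresses, was at 0 to 188 CPM. The defining trophoblast genes *Elf5* and *Esrrb* were at 0 in all 10 libraries and *Eomes* was at most at 0.834 CPM. The sums of the other lists were at most 10.6 CPM for extra-embryonic endoderm, 34.2 CPM for somite and presomitic mesoderm, 64.2 CPM for primordial germ cells, 70.0 CPM for primitive streak and caudal epiblast and 78.7 CPM for neural markers.

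Blood transcripts were lower in the E9.5 null than in the E9.5 WT libraries, while at E8.5 null library A lay near WT library A. The sum of 10 blood markers, which include the globin genes *Hba-x*, *Hbb-bh1* and *Hbb-y*, was 1156 and 1475 CPM in the E8.5 WT libraries and 1133 and 275 CPM in the E8.5 null libraries. At E9.5 it was 866, 216 and 869 CPM in WT libraries A, B and D and 60.9 and 14.4 CPM in null libraries A and B, so both null libraries lay below every WT library. *Hba-x* was not particular to Allantois. At E8.5 it was found in all 262 Allantois, 413 Mesenchyme and 321 Spinal cord progenitor cells, null and WT together. At E9.5 it was found in 75.1%, 67.0% and 72.8% of the cells of these types. Globin genes took no part in the tests, and the part of free blood RNA in the results was not tested.

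**Figure D2:**
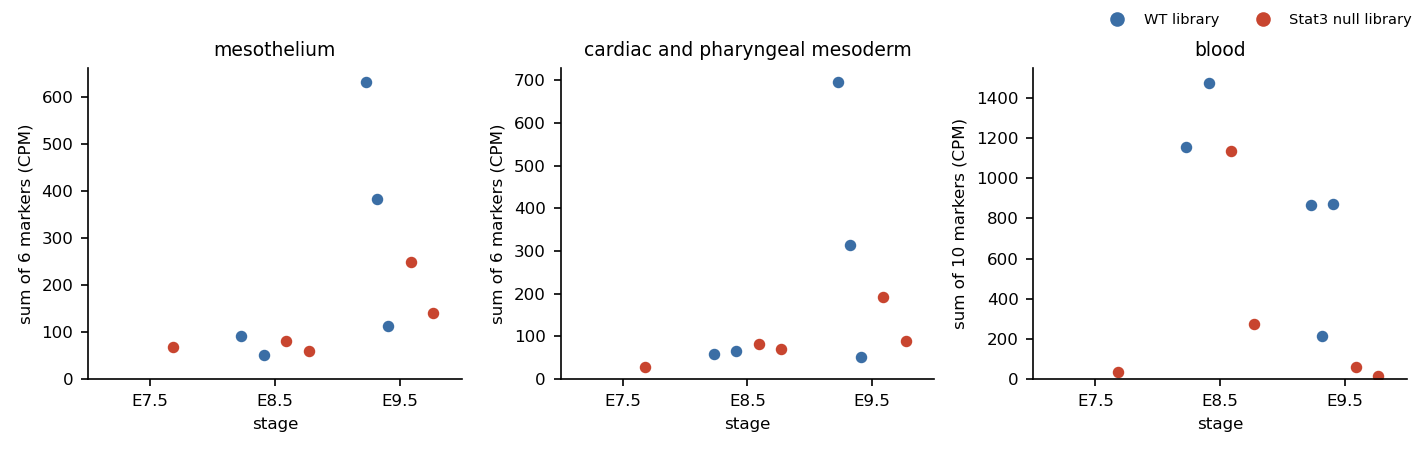
Summed level of markers of mesothelium (6 genes), cardiac and pharyngeal mesoderm (6 genes) and blood (10 genes) in Allantois cells, in CPM on linear axes, for each library with more than 15 Allantois cells, by stage. Blue points are WT and red points *Stat3* null libraries; E9.5 WT libraries A and B are highest for the first 2 sums, and for blood the E9.5 null and E7.5 null libraries lie below all others.

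The endothelial genes *Kdr*, *Etv2* and *Cdh5* were detected in every Allantois endothelium library of more than 5 cells, while *Tbx4* and *Hoxa11* were at 0 or a few CPM in some of them. *Kdr* lay between 378 and 612 CPM in the 6 libraries with more than 5 cells, and *Etv2*, the factor that starts the endothelial programme, between 268 and 552 CPM. *Cdh5*, which encodes VE-cadherin, lay between 52.6 and 109 CPM. *Tbx4*, in contrast, was at 33.7 CPM in E7.5 WT library B, 2.10 in E7.5 null library A, 0 and 46.2 in the E8.5 WT libraries, and 3.53 and 94.3 in the E8.5 null libraries. *Hoxa11* took the same order among the E8.5 libraries, at 3.54 and 28.3 CPM in the WT and 7.06 and 43.8 CPM in the null libraries. In E8.5 WT library A, E8.5 null library A and E7.5 null library A, with 8, 8 and 33 cells, these 2 markers were thus low. *Pitx1*, another allantois marker, was at 26.9 to 80.5 CPM in the E8.5 libraries. At that stage it was at most 3.72 CPM in Embryo proper endothelium and 0 in yolk sac endothelium. At E7.5 it was at 8.40 and 42.1 CPM, against at most 3.60 CPM in Embryo proper endothelium. The allantois markers were thus mixed, and the cells are called Allantois endothelium here as the transferred label has it.

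At E8.5 the median level in Allantois endothelium lay between those of Embryo proper endothelium and yolk sac (YS) endothelium for *Etv2*, *Tal1*, *Cdh5* and *Pecam1*. For *Lyve1* it lay below both, with 4 libraries of each type. The median level of *Etv2* was 443 CPM in Allantois endothelium, 804 CPM in Embryo proper endothelium and 2.74 CPM in YS endothelium. *Lyve1*, a hyaluronan receptor of yolk sac vessels, had medians of 1.77, 11.4 and 1516 CPM. *Tal1*, a factor shared by blood and endothelium, had medians of 141, 198 and 36.8 CPM. The junction genes *Cdh5* and *Pecam1* had medians of 80.9, 27.9 and 429.8 CPM for *Cdh5* and 44.3, 6.84 and 156 CPM for *Pecam1*. These labels were transferred on variable genes, which may include the genes named here, so the values describe the labels and are no test of a difference. At E7.5 *Etv2* was at 428 and 494 CPM in 2 libraries of Allantois endothelium, with medians of 1012 CPM in Embryo proper endothelium (3 libraries) and 258 CPM in Haematoendothelial progenitors (4 libraries), a label with enough cells at E7.5 alone. Of the allantois genes, *Tbx4* was at 0 in all 11 libraries of YS endothelium and at most 8.22 CPM in the 11 of Embryo proper endothelium. Other allantois genes were less particular. In Embryo proper endothelium *Pitx1*, *Hoxa10* and *Hoxa11* reached 86.3, 61.6 and 20.5 CPM, each at E9.5. Their highest levels in Allantois endothelium were 80.5, 30.3 and 43.8 CPM. Of the 60 E8.5 Allantois endothelium cells, 18 held a *Tbx4* UMI (median depth 23100 UMIs), against 2 of 94 Embryo proper endothelium cells at a median of 24624 UMIs and 0 of 128 YS endothelium cells. After each cell was thinned to 10000 UMIs the shares were 26.7% and 2.13%.

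The share of Allantois cells in a library was not called different between null and WT at any stage, and its spread was wide. At E8.5 they were 1.77% and 4.10% of the null libraries and 1.69% and 2.72% of the WT libraries, and the groups overlapped. The means were 2.94% ± 1.65 (SD, n = 2) among null libraries and 2.20% ± 0.727 (SD, n = 2) among WT libraries. The number of cells differed by 0.36 on the log2 scale (SE 0.49, edgeR quasi-likelihood test over 68 cell types, adjusted p = 0.984). At that stage 0% of the cell types were called (0 of 68). At E9.5 the mean share was 0.805% ± 0.232 (SD, n = 4) among null libraries and 1.20% ± 1.23 (SD, n = 4) among WT libraries, and WT library D at 3.03% was the highest of all 8. The difference was −0.57 (SE 0.45, adjusted p = 0.965, edgeR), where 1.41% of 71 types were called, and it turned to 0.32 without WT library D. At E7.5 the shares were 0.806% ± 0.748 (SD, n = 2) for null libraries and 0.862% ± 0.346 (SD, n = 2) for WT libraries and the difference was −0.30 (SE 0.72, adjusted p = 0.991, edgeR), where 11.1% of 27 types were called.

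Cells labelled Allantois endothelium took a smaller share of the 2 labels at E9.5 than at E7.5 in both genotypes. In libraries with at least 20 cells of the 2 labels, the share was 59.3% in E7.5 WT library B and 53.2% in E7.5 null library A. E7.5 null library B held only 3 cells of the 2 labels, so the null share at E7.5 rests on library A. At E8.5 it was 15.7% and 24.6% in the WT and 10.5% and 17.5% in the null libraries, with exact 95% binomial intervals from 4.66% to 32.7% over the 4. At E9.5 it was 0% and 3.23% in WT libraries A and D and 0% and 3.70% in null libraries A and B, where the 0 of 23 and 0 of 29 cells allow up to 14.8% and 11.9%. No E8.5 or E9.5 interval of these libraries reached the 2 E7.5 shares. The smaller E7.5 WT library A held 3 endothelial cells of 11 (27.3%, interval 6.02% to 61.0%), which lay within the E8.5 WT intervals, so a difference between E7.5 and E8.5 in WT rests on library B. The difference of null from WT within stages was −3.97 percentage points (exact two-sided permutation test over 10 libraries, p = 0.278, the smallest possible being 0.0278). Intervals cover counting error only. The share also depends on which label an endothelial cell received. In Embryo proper endothelium the highest *Pitx1* level was 3.72 CPM at E8.5 and 86.3 CPM at E9.5, and that of *Hoxa10* 2.51 and 61.6 CPM. *Tbx4* was at most 3.77 and 8.22 CPM there. Whether other labels took in endothelial cells of the allantois at E9.5 was not tested.

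**Figure D3:**
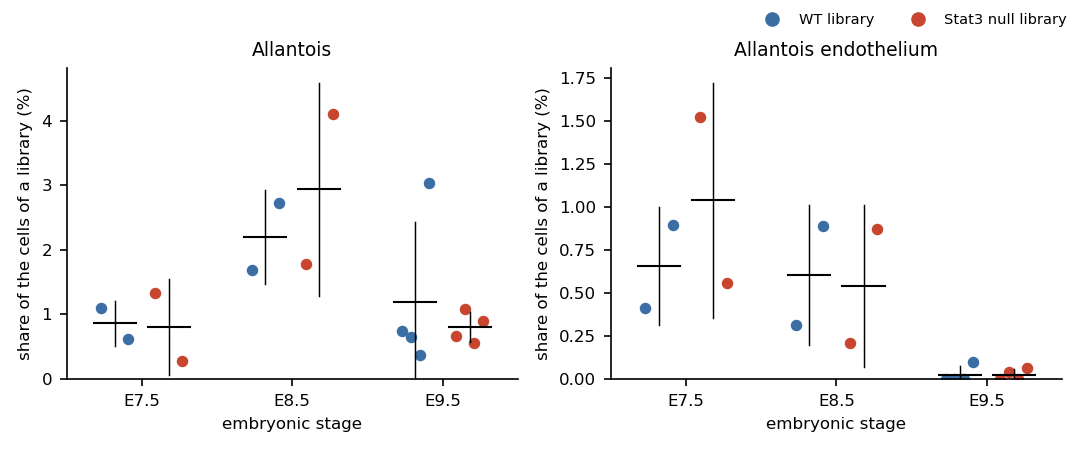
Share of a library's cells that carry the label Allantois (left) or Allantois endothelium (right), in percent on linear axes, by stage. Points are libraries, blue for WT and red for *Stat3* null, and bars give the mean ± SD of a group (drawn no lower than 0); E9.5 WT library D at 3.03% stands above the other E9.5 libraries, and endothelium is at or near 0% at E9.5.

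The atlas stage to which Allantois cells mapped gave no detectable difference between genotypes. Library means were 8.41 and 8.30 days in the E8.5 WT libraries and 8.48 and 8.31 in the null libraries. At E9.5 they were 9.11, 8.97 and 8.85 in WT libraries A, B and D and 9.03 and 8.79 in null libraries A and B. The mean difference of null from WT within stages was −0.0131 days (exact two-sided permutation test over 9 libraries, p = 0.883), and leaving out 1 library at a time moved it between −0.0725 and 0.0462 days. Cells of E9.5 embryos mapped in both genotypes mostly to 2 stages: 8.5 days for 32.3% of the WT and 29.5% of the null cells, and 9.25 days for 50.3% and 47.4%.

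Between E7.5 and E8.5, 7 of 19 matrix genes, 7 of 21 imprinted genes and the adhesion gene *Vcam1* rose in the WT Allantois, while *Pou5f1*, *Hand1* and *Cdx2* fell. Of 22 regulators of allantois mesoderm, 2 rose (*Vcam1*, *Wnt2*) and 2 fell (*Hand1*, *Cdx2*). This comparison needed libraries of 6 to 15 cells (2 E7.5 against 2 E8.5 WT libraries, chosen after the data were seen). The 2 E7.5 libraries may hold embryos of different size, so they may not be like replicates. Of 7160 genes, 242 (3.38%) were called at an adjusted p under 0.05 and an absolute log2 fold change over 1 by edgeR, 144 (2.01%) higher at E8.5 and 98 (1.37%) lower. *Vcam1* was at 0 and 3.10 CPM at E7.5 and at 94.7 and 88.7 CPM at E8.5. With 1 UMI at E7.5 the ratio was 51.4 (95% counting interval 9.17 to 2038, edgeR adjusted p = 0.00011). *Wnt2*, a ligand needed for placental vessels, rose from 20.7 and 3.10 to 205 and 113 CPM (log2 fold change 3.94, SE 0.57, edgeR adjusted p = 0.00166).

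Of 19 matrix genes tested, 7 rose and none fell (*Col1a1*, *Col1a2*, *Col5a1*, *Col5a2*, *Fbn2*, *Fbln1*, *Vcan*), with a median log2 fold change of 1.27 against 0.00 over all genes. *Fbn2*, which encodes the microfibril protein fibrillin-2, stood at 8.26 and 12.4 CPM at E7.5 and at 98.3 and 90.7 CPM at E8.5. Of 21 imprinted genes, 7 rose and none fell (*H19*, *Igf2*, *Cdkn1c*, *Plagl1*, *Sgce*, *Ndn*, *Nnat*). *Cdkn1c*, an inhibitor of cyclin-dependent kinases, went from 958 and 657 CPM to 2959 and 3252 CPM (2.03, SE 0.18). The epsilon-sarcoglycan gene *Sgce* went from 20.7 and 37.2 to 420.5 and 282 CPM (3.62, SE 0.33).

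*Pou5f1*, the pluripotency factor that persists in the posterior epiblast, fell from 66.1 and 74.4 to 2.94 and 7.80 CPM (−3.51, SE 0.43). *Hand1*, a factor of extra-embryonic mesoderm, fell from 731 and 549 to 165 and 253 CPM (−1.52, SE 0.21). *Cdx2* fell from 252 and 282 to 21.3 and 57.0 CPM (−2.63, SE 0.33), a call that was lost without E7.5 WT library B. Of 5 endothelial genes tested, *Kdr* and *Eng* fell and none rose. *Kdr* went from 62.0 and 136 CPM to 30.1 and 46.8 CPM (−1.31, SE 0.35, edgeR adjusted p = 0.0474), and was not called by DESeq2, without E7.5 WT library B or without E8.5 WT library A. *Slc2a3*, a glucose transporter gene, fell from 256 and 236 to 50.6 and 79.5 CPM (−1.81, SE 0.24). Among *Hox* genes *Hoxd9* and *Hoxb6* fell and *Hoxa9* rose, while *Tbx4* (0.09, SE 0.21) and *Hoxa11* (0.59, SE 0.38) did not pass the test. The vein factor gene *Nr2f2*, the calponin gene *Cnn2* and the cyclin gene *Ccne2* rose and the artery gene *Efnb2* and the receptor gene *Lifr* fell, each as the 1 call of its list in that direction, and no gene of the BMP and TGF-beta list or of the vessel ligands was called. Of the 7 alternatives, *Lifr* was not called in 5, *Efnb2* in 4, *Eng* and *Hoxa9* in 3, *Ccne2* in 2 and *Nr2f2* and *Cnn2* in 1. *Nr2f2* was also not tested in 2 of them. Of the 39 called genes that the naming rule selected, 12 were called under all 7 alternatives, which are *Vcam1*, *Pou5f1*, *Hand1*, *Hoxd9*, *Hoxb6*, *Fbn2*, *Col1a2*, *Vcan*, *Slc2a3*, *Cdkn1c*, *Sgce* and *Nnat*. The number of calls itself was 104 without E7.5 WT library B, 152 without E8.5 WT library A, 430 without E7.5 WT library A and 117 by DESeq2.

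From E8.5 to E9.5 the caudal factor gene *Cdx4*, the chorion-binding adhesion gene *Vcam1* and 7 of 20 glycolysis and hypoxia genes fell in the WT Allantois, and the chemokine gene *Cxcl12* and the matrix protease gene *Adamts5* rose. Of 8818 genes tested in 2 E8.5 and 3 E9.5 WT libraries (A, B and D), 298 (3.38%) were called by edgeR, 200 (2.27%) higher and 98 (1.11%) lower at E9.5. The number was 67 without E8.5 WT library B, 107 without E9.5 WT library B and 535 without E9.5 WT library D. With library D as the only E9.5 library it was 192, of which 103 were higher, and the spread then came from the 2 E8.5 libraries. The share of higher calls was 67.1% with all libraries, 53.6% with D alone and 74.0% without D. Without E8.5 WT library B it turned, with 31 higher and 36 lower (46.3% higher). Of 36 called genes that the naming rule selected, 15 were called under all 11 alternatives.

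Of the 23 regulators of allantois mesoderm that were tested, 5 fell and none rose, with a median of −0.41 against 0.02 over all genes. *Vcam1* stood at 94.7 and 88.7 CPM at E8.5 and at 16.6, 2.18 and 18.4 CPM in E9.5 WT libraries A, B and D (−2.73, SE 0.33, edgeR adjusted p = 0.00249). The null libraries, which took no part in this test, held 63.8 and 93.0 CPM at E8.5 and 53.4 and 24.6 CPM at E9.5. *Cdx4* went from 22.7 and 43.9 CPM to 0, 0 and 2.41 CPM (−4.41, SE 0.56). *Snai1*, a repressor of epithelial adhesion, went from 93.9 and 111 CPM to 19.3, 34.9 and 37.7 CPM (−1.82, SE 0.24). *Vcam1*, *Cdx4* and *Snai1* were called under every alternative. *Cdx2* (−3.48, SE 0.64) and the repressor gene *Tbx2* (−1.79, SE 0.37) completed the 5. *Cdx2* was lost in 5 of the 11 alternatives, D alone among them, and *Tbx2* without E8.5 WT library B or E9.5 WT library D. The list held 3 lower calls without E8.5 WT library B and 7 without E9.5 WT library D.

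The other allantois factors named here were not called with all libraries, which does not show that their level was kept. *Tbx4* at 156 and 189 CPM against 63.5, 48.0 and 125 CPM was lower in every E9.5 library but missed the threshold (−1.13, SE 0.34, edgeR adjusted p = 0.112). It passed without E9.5 WT library D at −1.74, and also by DESeq2 and without the filter on low counts. *Hoxa11* (−0.59, SE 0.38) and *Kdr* (−0.13, SE 0.68) did not pass, and the sign for *Kdr* turned in 3 alternatives. *Pitx1* (0.21, SE 0.19), *Wnt2* (0.24, SE 0.23) and *Hoxa13* (0.19, SE 0.28) did not pass either. *Itga4*, the integrin partner of VCAM1, was at 5.14 and 6.82 CPM at E8.5 and at 160.2, 201 and 34.4 CPM in E9.5 WT libraries A, B and D. It missed the threshold (4.11, SE 1.21, edgeR adjusted p = 0.166), although it passed by DESeq2, with D alone and without D. Its 2 highest values were in the libraries with the highest mesothelium and cardiac marker sums.

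Ligands that act on vessels moved in both directions, 2 up and 2 down of 9 tested. *Cxcl12*, whose product attracts vessel and progenitor cells, rose from 32.3 and 18.5 CPM to 135, 103 and 163 CPM (2.33, SE 0.27, edgeR adjusted p = 0.00148). *Pdgfa*, a growth factor for mesenchyme, fell from 244 and 286 CPM to 48.3, 17.5 and 55.5 CPM (−2.68, SE 0.28). *Pgf*, the placental member of the VEGF family, fell from 50.6 and 60.4 CPM to 15.2, 8.74 and 19.9 CPM (−1.89, SE 0.28). The 3 were called under every alternative. The guidance ligand gene *Sema3a* rose (2.66, SE 0.50) but was not called with D alone, without E8.5 WT library B or without E9.5 WT library B. *Vegfa* was at 32.3 and 46.8 CPM and then at 20.7, 37.1 and 16.3 CPM, which overlapped (−1.04, SE 0.33, edgeR adjusted p = 0.0877).

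Among the endothelial genes only 6 were high enough to be tested in Allantois, and *Etv2* fell from 22.7 and 54.1 CPM to 0, 0 and 1.81 CPM (−4.997, SE 0.62, edgeR adjusted p = 0.0031). *Nr2f2*, a factor of veins and mesenchyme, rose from 29.4 and 30.2 CPM to 62.1, 91.7 and 78.4 CPM (1.21, SE 0.23), and was the only one of 10 artery and vein genes to be called. *Etv2* was not called in the fit of all libraries together, and *Nr2f2* was not called there, without E8.5 WT library B or without E9.5 WT library B.

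Of 20 glycolysis and hypoxia genes tested, 7 fell and none rose, 18 had a negative sign, and the median was −0.99 against 0.02 over all genes. *Ldha*, which encodes a subunit of lactate dehydrogenase, stood at 2394 and 2379.8 CPM at E8.5 and at 1105, 1238 and 1131 CPM in E9.5 WT libraries A, B and D (−1.19, SE 0.12, edgeR adjusted p = 0.000359). *Ldha* was called under all 11 alternatives. *Pgk1*, the phosphoglycerate kinase gene, fell from 1039 and 873 CPM to 623, 448 and 514 CPM (−1.003, SE 0.15). *Slc2a3* fell from 50.6 and 79.5 CPM to 34.5, 26.2 and 22.6 CPM (−1.45, SE 0.27). *Bnip3*, a mitophagy receptor gene induced by low oxygen, fell from 131 and 94.6 CPM to 67.7, 83.0 and 45.2 CPM (−1.04, SE 0.25). *Eno1*, *Hk2* and *Egln3* were the other 3. *Pgk1* and *Eno1* were each lost in 4 of the 11 alternatives. Without E9.5 WT library B only *Ldha* and *Pdk1* were called, with a median of −0.96, while with D alone 10 were called. The null libraries showed *Ldha* at 2396 and 2271 CPM at E8.5 and 1083 and 1084 CPM in E9.5 null libraries A and B. *Ndufa4l2*, a mitochondrial gene known as a target of hypoxia-inducible factors (HIF), was outside this list and fell from 79.3 and 45.8 CPM to 1.38, 2.18 and 3.32 CPM (−4.56, SE 0.39).

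HIF can bind sites with the core letters ACGTG. The stretch before the start of these genes was searched for that word alone, on both strands, because the genes fell together. The search was added after the values were seen. Of the 7 called genes, 6 had a promoter window in the RefSeq table (build GRCm38.p6) and 5 of them (*Ldha*, *Pgk1*, *Bnip3*, *Hk2*, *Egln3*) held the word within 250 bases before the start. *Eno1* held none and *Slc2a3* had no window. The word stood in 6 of 12 other tested genes of the list and in 26.6% of 6992 tested genes with a window (18.5% of 27025 symbols). The list was drawn up as glycolysis and hypoxia genes, so a share above that of all tested genes was likely whatever happened in these cells. A part of HIF in the fall was not tested. The parts around the matches in 3 of the genes are shown 5′ to 3′ on the gene's strand with ACGTG or its complement CACGT in capitals, where CACGTG is a match on both strands that overlap and counts as 2. They are chr7:46845619-46845803 (+) for *Ldha*, chrX:106186910-106187013 (+) for *Pgk1* and chr7:138909569-138909654 (−) for *Bnip3*. *Ldha* held 5 matches, *Pgk1* 2 and *Bnip3* 2, and a second annotated start of *Ldha* held none.
Ldha: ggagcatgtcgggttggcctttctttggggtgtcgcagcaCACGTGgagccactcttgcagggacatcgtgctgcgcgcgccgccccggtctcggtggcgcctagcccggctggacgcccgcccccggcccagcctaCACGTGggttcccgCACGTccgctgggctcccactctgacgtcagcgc
Pgk1: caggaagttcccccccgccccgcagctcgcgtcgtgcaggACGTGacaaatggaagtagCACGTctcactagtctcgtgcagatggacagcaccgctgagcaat
Bnip3: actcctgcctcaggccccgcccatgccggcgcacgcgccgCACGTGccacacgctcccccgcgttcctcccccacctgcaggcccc
These letters are a description of the sequence and no measure of binding.

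Imprinted genes moved one by one. *Phlda2* fell from 3009 and 4577 CPM at E8.5 to 226, 312 and 521 CPM at E9.5 (−3.54, SE 0.43, edgeR adjusted p = 0.0235). *Slc38a4*, an amino acid transporter gene, fell from 237 and 385 CPM to 113, 116 and 102 CPM (−1.67, SE 0.20) and was called under every alternative. *Nnat*, the neuronatin gene, rose from 97.6 and 78.5 CPM to 323, 417 and 358 CPM (1.91, SE 0.17). *Sgce* and *Snrpn* fell as well, so 1 rose and 4 fell of 23 tested, with a median of 0.06. *Car4*, which encodes a membrane carbonic anhydrase, fell from 272 and 266 CPM to 12.4, 17.5 and 31.1 CPM (−3.63, SE 0.25). *Phlda2* was not called without E9.5 WT library B or without either E8.5 library, *Car4* was not called when libraries of 6 to 15 cells were added (edgeR adjusted p = 0.0756), and *Nnat* was not called in the fit of all libraries together.

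Several genes that were absent or nearly so at E8.5 appeared at E9.5. *Adamts5*, which encodes a protease of the extracellular matrix, was at 0 in both E8.5 WT libraries and at 55.2, 17.5 and 27.1 CPM at E9.5, at least 34.9-fold higher when the limit of a count of 0 (3 UMIs over the group) is taken for E8.5. *Ppp2r2b*, a regulatory subunit gene of protein phosphatase 2A, was at least 19.2-fold higher on the same basis. *Col14a1*, a fibril-associated collagen gene, had 2 UMIs at E8.5 and 176 at E9.5, a ratio of 66.8 (95% counting interval 18.2 to 556). In the other direction *Coro2a*, an actin-binding coronin gene, had 58 UMIs at E8.5 and 1 at E9.5, a ratio of 76.4 (13.2 to 3070). *Nxf7*, of the nuclear export factor family, fell from 109 and 89.7 CPM to 8.29, 6.55 and 18.7 CPM (−2.94, SE 0.30). These 5 genes were called under all 11 alternatives. The mesothelial gene *Bnc1* at 22.1, 13.1 and 4.52 CPM in E9.5 WT libraries A, B and D was called too, and it was highest where the mesothelium marker sum was highest. *Bnc1* was not called without E8.5 WT library A (edgeR adjusted p = 0.0984) or B (0.189), and it was too low to be tested with D alone, without E9.5 WT library A or without E9.5 WT library B.

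**Figure D4:**
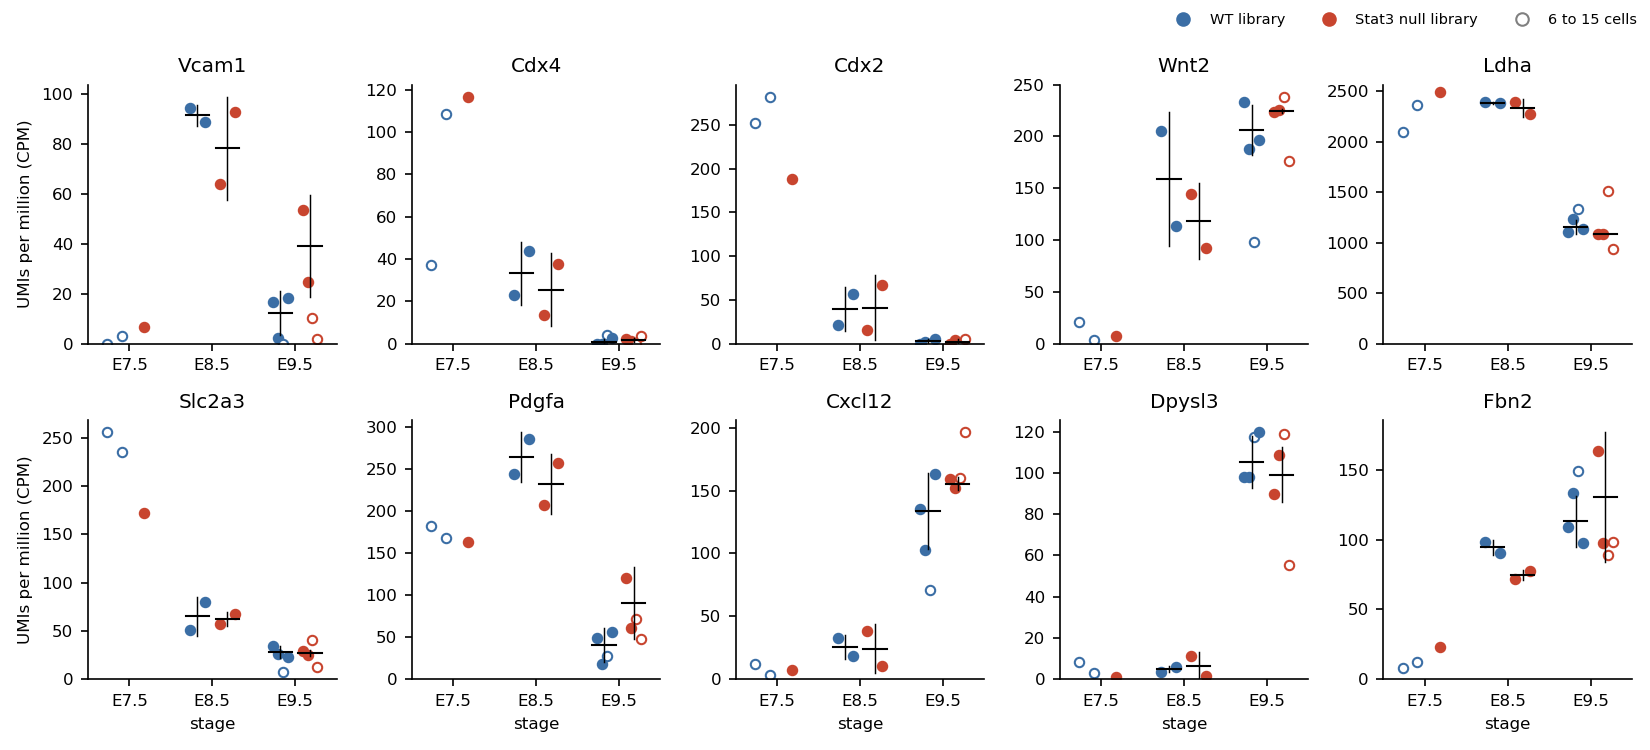
Levels of 10 genes in Allantois, in CPM on linear axes that differ between panels, by stage. Blue points are WT and red points *Stat3* null libraries, hollow points are libraries of 6 to 15 cells, and bars give mean ± SD over libraries with more than 15 cells; *Vcam1* peaks at E8.5, *Cdx2*, *Ldha* and *Slc2a3* fall to E9.5, and *Cxcl12* and *Dpysl3* are highest at E9.5.

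Smooth muscle genes, posterior *Hox* genes, other *Hox* genes and STAT3 pathway genes gave no call between E8.5 and E9.5 in WT Allantois. Without E9.5 WT library D, *Hoxa9*, *Hoxa10* and *Hoxa11* were called lower, and without E8.5 WT library A 3 smooth muscle genes (*Tagln*, *Myl9*, *Tpm1*) were called higher. Of 11 smooth muscle genes, 10 had a positive sign with a median of 0.45. *Acta2*, the smooth muscle actin gene, was spread from 502 to 1393 CPM over the 3 E9.5 WT libraries and from 331 to 917 CPM over the 2 E8.5 libraries, and these overlapped. *Tpm1*, a tropomyosin gene, rose by a smaller step that passed the p threshold only (0.91, SE 0.16, edgeR adjusted p = 0.0102). Matrix genes gave 1 call up (*Col5a2*) and 1 down (*Lama4*) of 23. The BMP and TGF-beta list gave *Bmp5* up and *Tgfb1* down of 21, and of 28 cell cycle genes *Ccne2* fell (median −0.39). *Bmp5*, *Ccne2*, *Col5a2* and *Lama4* were not called with D alone, and none of these 4 nor *Tgfb1* was called without E8.5 WT library B or without E9.5 WT library B.

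To see which of these changes differed from those in a neighbouring tissue, the change from E8.5 to E9.5 was compared with that in WT Mesenchyme, a label of 1242 cells over all stages, in the same 5 libraries (interaction term with a library block). Of 9993 genes, 188 (1.88%) differed by edgeR, 144 (1.44%) with a change more positive in Allantois and 44 (0.44%) more negative. The number was 21 without E8.5 WT library B, 112 without E8.5 WT library A, 124 without E9.5 WT library A, 377 without E9.5 WT library D and 160 with D alone.

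The posterior *Hox* genes rose in cells with the label Mesenchyme, while none was called in Allantois. Of 9900 genes tested in Mesenchyme 4.25% were called, 2.49% higher and 1.76% lower. Of the posterior *Hox* list 9 of 11 rose there with a median of 2.28, while in Allantois none of 11 was called and the median was −0.14. The difference was called for 6 of 11, all more negative in Allantois (*Hoxa9*, *Hoxa10*, *Hoxa11*, *Hoxc10*, *Hoxd10*, *Hoxd11*). *Hoxa11* went in Mesenchyme from 1.35 and 1.31 CPM to 13.5, 9.88 and 6.44 CPM in libraries A, B and D, and in Allantois from 69.7 and 46.8 CPM to 27.6, 21.8 and 60.6 CPM (difference −3.30, SE 0.75, edgeR adjusted p = 0.0494). The level in Allantois stayed above that in Mesenchyme in each of these libraries. After thinning to 10000 UMIs, 0.969% of E8.5 and 6.56% of E9.5 Mesenchyme cells, null and WT together, held a *Hoxa11* UMI. For *Hoxa10* these shares were 1.69% and 10.7%, and for *Tbx4* 0.969% and 9.02%. Whether the label took in other cells at E9.5 was not tested. In Allantois *Hoxa11* was lowest in E9.5 WT libraries A and B, while D at 60.6 CPM lay between the 2 E8.5 values. Calls of this list with D alone are not given. Over the libraries left out in turn, between 0 (without E8.5 WT library B) and 8 (without E9.5 WT library D) of the list were called. The number was 2 without E9.5 WT library A and 3 without E8.5 WT library A, and the median stayed between −3.24 and −2.04.

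Genes of the contractile skeleton also parted. *Tpm1* (difference 1.21, SE 0.12) and the caldesmon gene *Cald1* (1.18, SE 0.11, edgeR adjusted p = 8.21e-05) were the 2 smooth muscle genes called of 11, and all 11 had a positive sign. *Cald1* stood at 679 and 482 CPM in E8.5 and 885, 762 and 849 CPM in E9.5 Allantois, and at 1279 and 1102 CPM and then 775, 704 and 766 CPM in Mesenchyme, so the levels of the 2 tissues met. *Krt18*, a keratin gene, fell in Mesenchyme from 931 and 1025 to 413, 329 and 368 CPM, while in Allantois it moved from 335 and 298 to 438, 384 and 415 CPM (difference 1.76, SE 0.13). *Dpysl3*, a gene for a cytoskeletal protein of migrating cells, rose in Allantois from 3.67 and 5.85 to 98.0, 98.3 and 119.7 CPM and lay in Mesenchyme at 68.2 and 54.7 and then 73.0, 78.5 and 67.9 CPM (difference 4.14, SE 0.32). *Nnat* rose in Allantois to the level that Mesenchyme held at both stages (difference 2.01, SE 0.15).

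*Vcam1* (−2.41, SE 0.44), *Snai1* (−1.92, SE 0.38) and *Tbx2* (−2.99, SE 0.37) had a more negative change in Allantois than in Mesenchyme. *Tbx2* was called under all 7 alternatives, *Vcam1* was not called without either E8.5 library, and *Snai1* was not called in 4 of them, D alone among these. *Vcam1* in Mesenchyme was at 10.8 and 9.49 CPM at E8.5 and at 7.30, 8.84 and 8.69 CPM at E9.5, well under the E8.5 level in Allantois. Ligands differed too: *Cxcl12* was more positive (1.74, SE 0.25) and *Pdgfa* (−1.88, SE 0.29) and *Pgf* (−1.62, SE 0.32) were more negative in Allantois. *Pdgfa* was called under all 7 alternatives, while *Cxcl12* was lost without E8.5 WT library B and *Pgf* without that library or E9.5 WT library A. The glycolysis genes did not separate the tissues by this test, since 0 of 20 were called, the median difference was −0.16 and the list fell in Mesenchyme as well (6 called lower, median −0.61). At an unadjusted p under 0.05, *Ldha* differed by −0.36 (SE 0.13, edgeR adjusted p = 0.173). *Slc2a3* was called, with a less negative change in Allantois, without the filter on low counts, with D alone, without E9.5 WT library A and without E9.5 WT library D.

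Turning to genotype, the targeted gene was measured first. *Stat3* in Allantois was at 1.60 and 2.73 CPM in the E8.5 null libraries and at 8.81 and 7.31 CPM in the E8.5 WT libraries. At E9.5 it was at 4.28 and 2.05 CPM in null libraries A and B and at 12.4, 6.55 and 10.6 CPM in WT libraries A, B and D. In these libraries the null values lay below the WT values at both stages, from 7 against 27 and from 6 against 47 UMIs. Of the smaller E9.5 libraries, WT library C with 7 cells held no *Stat3* UMI and null libraries C and D stood at 5.07 and 3.71 CPM. The tests gave −1.85 (SE 0.60) and −1.73 (SE 0.67), each with an edgeR adjusted p of 1. Reads of a 3′ kit come from the end of the transcript, and whether they lie outside the replaced exons was not determined here.

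At E8.5 no gene was called between null and WT Allantois by edgeR (0 of 8447, 0%), with 190 at an unadjusted p under 0.05. DESeq2 also called 0, while 15 were called without the filter on low counts and 58 without null library A. Of 13 lists none held a call. *Tbx4* stood at 161 and 193 CPM in null and 156 and 189 CPM in WT (0.07, SE 0.17). *Vcam1* at 63.8 and 93.0 CPM in null overlapped the 94.7 and 88.7 CPM of WT. *Igf2*, the imprinted growth factor gene, was higher in both null libraries, at 1009 and 1029 CPM against 756 and 559 CPM, but missed the threshold (0.67, SE 0.16, edgeR adjusted p = 1). Of 21 matrix genes, 19 had a negative sign with a median of −0.19.

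At E9.5, 6 of 8268 genes (0.0726%) were called by edgeR between 2 null (A, B) and 3 WT libraries (A, B, D), of which 3 were higher (0.0363%) and 3 lower (0.0363%) in null. They were *Cwc22*, *Slc38a4* and *Igf2*, and *Grb10*, *Pttg1* and *Tpm3-rs7*. DESeq2 called 9 (3 higher and 6 lower), and the number was 2 (1 and 1) without E9.5 WT library B. The directions were uneven without E9.5 WT library D, with 3 higher and 13 lower, and without null library A, with 1 higher and 5 lower. With D as the only WT library 27 were higher and 10 lower, and the spread then came from the 2 null libraries. None of the regulators of allantois mesoderm (20 tested), endothelial genes (4), posterior *Hox* genes (11), vessel ligands (9) or STAT3 pathway genes (13) was called. All 13 anterior and middle *Hox* genes tested had a negative sign in null with a median of −0.49, against −0.01 over all genes, and none was called. Of 22 matrix genes 18 had a positive sign (median 0.25, none called), the opposite of the sign that most matrix genes had at E8.5. Without null library A these counts were 8 of 14 *Hox* genes and 12 of 23 matrix genes, and with D alone they were 14 of 15 and 22 of 23.

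*Cwc22*, a splicing factor gene, was the 1 gene of the 6 that was called under all 12 alternatives. It stood at 213 and 160.0 CPM in null libraries A and B and at 35.9, 24.0 and 35.9 CPM in WT libraries A, B and D (2.41, SE 0.21, edgeR adjusted p = 0.000184). The smaller null libraries C and D held 112 and 196 CPM and WT library C 19.6 CPM, so the 8 libraries did not overlap by genotype. Mesenchyme showed the same order, at 144 to 211 CPM in null and 28.6 to 43.1 CPM in WT, and the difference between the effects in the 2 tissues did not pass the interaction test (0.34, SE 0.25, edgeR adjusted p = 1). From E8.5 to E9.5 *Cwc22* fell in the WT Allantois, and at E8.5 it overlapped between genotypes, at 72.9 and 119.6 CPM in null and 47.0 and 84.8 CPM in WT. *Cwc22* and *Tpm3-rs7* have near-identical copies in mouse genomes, so their reads may be split between copies and their levels are uncertain.

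Imprinted genes made up 3 of the 6 calls, though 23 were tested. They took no part in the label transfer, by the study's methods. *Grb10*, an imprinted adaptor that restrains growth, was at 1.07 and 12.3 CPM in null libraries A and B and at 471, 563 and 555 CPM in the WT libraries (−6.32, SE 0.46, edgeR adjusted p = 0.00722). At E8.5 the null libraries were split, at 2.13 CPM in A and 295 CPM in B, against 497 and 418 CPM in WT. At E7.5 *Grb10* was at 1.67 CPM in null library A, against 297 and 363 CPM in the WT libraries. In Mesenchyme *Grb10* was called lower too, at 0.944 to 28.98 CPM in the 4 E9.5 null libraries against 401 to 466 CPM in WT (−4.96, SE 0.49, edgeR adjusted p = 0.0269, where 0.087% of 9198 genes were called, 0.0326% higher and 0.0544% lower), and the difference between the 2 tissues did not pass the interaction test (−2.17, SE 0.71, edgeR adjusted p = 1). The *Grb10* call was lost without E9.5 WT library B and in the fit of all libraries together.

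*H19*, the imprinted RNA beside *Igf2*, split the null libraries in the opposite way at E8.5. It was at 819.6 CPM in null library A and 12.3 CPM in B, against 1942 and 1466 CPM in WT. At E9.5 it was at 4.28, 33.8, 7.60 and 836 CPM in null libraries A to D and at 1659.8 to 1868 CPM in the 4 WT libraries. *H19* was not called (−6.56, SE 0.65, edgeR adjusted p = 0.276). *Igf2* was at 1568, 1677, 1435 and 1586 CPM in the E9.5 null libraries and at 878, 817, 726 and 599 CPM in the WT libraries, without overlap (1.04, SE 0.16, edgeR adjusted p = 0.0233), though the call was lost without either null library or without WT library B or D. *Dlk1*, an imprinted Notch-like gene, was at 430.3 CPM in E8.5 null library A but at 10.9 CPM in B, against 430.0 and 351 CPM in WT. *Nnat* was at 2.05 CPM in E9.5 null library B alone, while the other 3 null libraries held 182 to 281 CPM. At E8.5 the 2 null libraries differed by more than the 2 WT libraries did in *Grb10*, *H19* and *Dlk1*.

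*Slc38a4* stood at 243 and 241 CPM in E9.5 null libraries A and B and at 113, 116 and 102 CPM in WT (1.10, SE 0.15, edgeR adjusted p = 0.0106), and was not called without either null library, without WT library B or in the fit of all libraries together. *Pttg1*, the securin gene, was at 58.8 and 51.3 CPM in null libraries A and B and at 166, 142 and 158 CPM in WT (−1.56, SE 0.18, edgeR adjusted p = 0.00371). Null libraries C and D held 83.7 and 183 CPM, and *Pttg1* was not called with all 8 libraries or without null library B. *Tpm3-rs7*, a tropomyosin-related sequence, was at 84.4 and 91.3 CPM in null libraries A and B and at 209.9, 203 and 188 CPM in WT (−1.24, SE 0.17, edgeR adjusted p = 0.00856), and was not called without either null library or WT library B. In Mesenchyme *Pttg1* overlapped between genotypes at E9.5, at 95.7 to 159.6 CPM in null and 121 to 181 CPM in WT.

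**Figure D5:**
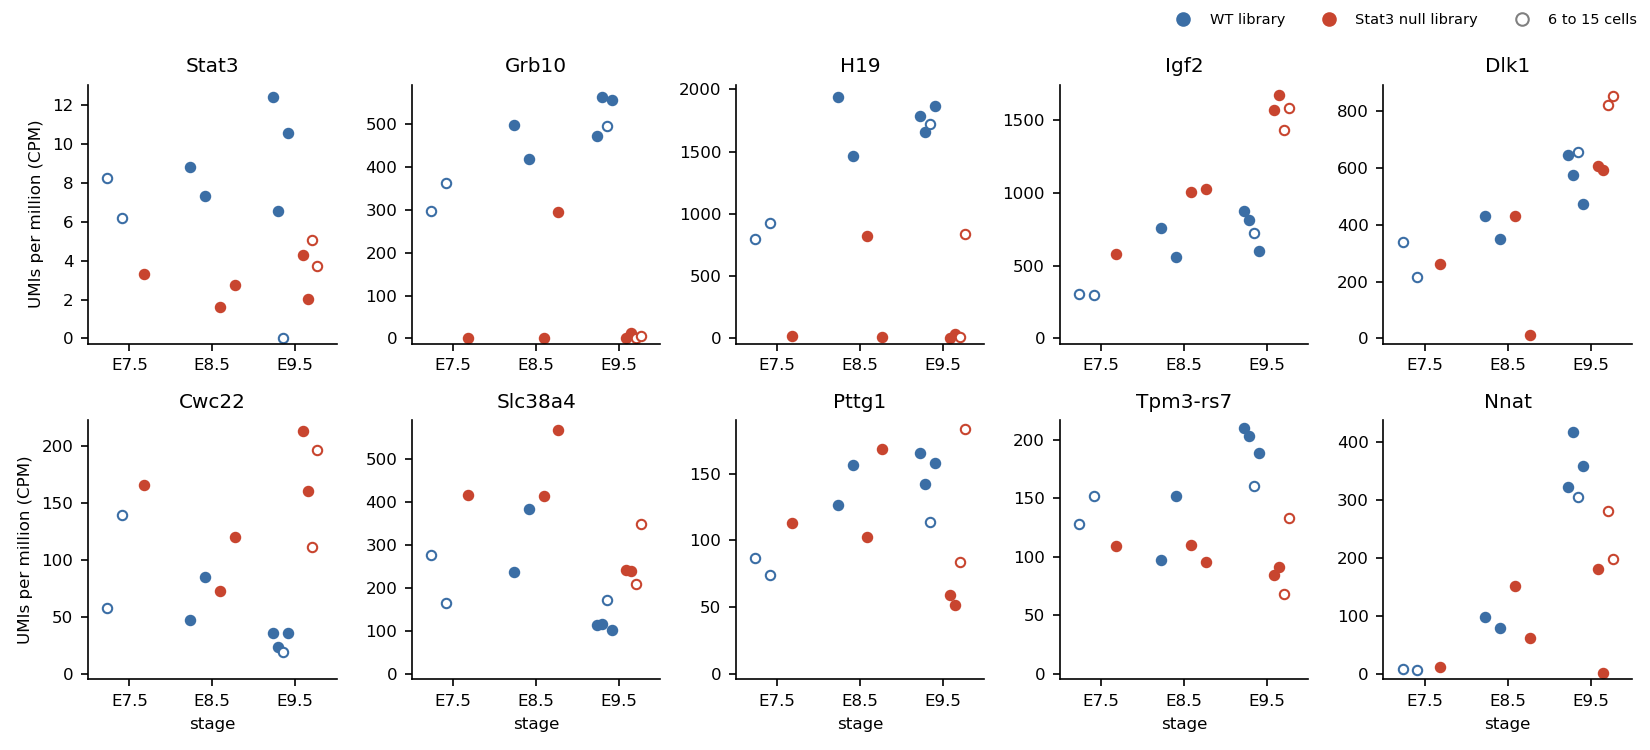
Levels of *Stat3*, 6 imprinted genes (*Nnat* among them), *Cwc22*, *Pttg1* and *Tpm3-rs7* in Allantois, in CPM on linear axes that differ between panels, by stage. Blue points are WT, red points *Stat3* null and hollow points libraries of 6 to 15 cells; *Cwc22* and *Igf2* do not overlap between genotypes at E9.5, and *Grb10*, *H19* and *Dlk1* are near 0 in some null libraries and higher in others, where *Dlk1* reaches the WT level and the highest *Grb10* and *H19* values of E8.5 and E9.5 null libraries stay below every WT library of their stage.

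The effect of genotype differed between Allantois and Mesenchyme for 2 of 9494 genes at E9.5 (0.0211%, edgeR interaction test) and for 0 of 9385 (0%) at E8.5. The 2 were the immediate early genes *Fos* (2.35, SE 0.31, adjusted p = 0.00829) and *Fosb* (2.47, SE 0.37, adjusted p = 0.0364). *Fos* was not called without null library A (adjusted p = 0.0658, edgeR), and *Fosb* was not called without either null library or without WT library A (adjusted p from 0.117 to 0.366, edgeR). *Fos* in Allantois was at 121 and 26.7 CPM in null libraries A and B and at 31.8, 10.9 and 21.4 CPM in WT libraries A, B and D, while in Mesenchyme it was at 88.7 and 9.34 CPM in null and 124, 38.5 and 65.0 CPM in WT. With D as the only WT library both were called (2.18, SE 0.36, for *Fos* and 2.25, SE 0.39, for *Fosb*), among 24 calls. Over all these libraries the *Fos* values of each tissue overlapped between genotypes, and null library A was the highest in Allantois. At E8.5, 218 genes passed an unadjusted p under 0.05 in this test. A difference in the effect of genotype in Allantois between E9.5 and E8.5 was called for 0 of 9815 genes (0%, edgeR, 181 at an unadjusted p under 0.05).

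In Allantois endothelium only E8.5 had 2 libraries of more than 5 cells per genotype, and this comparison of 18 null with 42 WT cells was chosen after the data were seen. No gene was called (0 of 3995, 0%, edgeR, 114 at an unadjusted p under 0.05, and 0 by DESeq2), while leaving out 1 library gave 1 to 8 calls. *Stat3* was at 0 in both null libraries and at 28.4 and 19.4 CPM in WT (21 UMIs), at least 4.26-fold lower. *Kdr* stood at 378 and 391 CPM in null and 447 and 407 CPM in WT (−0.12, SE 0.18), without overlap but far from the threshold. *Bmp2*, a BMP ligand gene, was at 106 and 104 CPM in null and 35.4 and 41.8 CPM in WT (1.43, SE 0.34, edgeR adjusted p = 1), and *Eng*, a TGF-beta co-receptor gene of vessels, was at 28.2 and 20.2 CPM in null and 49.6 and 53.7 CPM in WT (−1.07, SE 0.44). *Tbx4* and *Hoxa11* overlapped. Imprinted genes differed between the 2 null libraries here too. *Grb10* was at 0 and 249 CPM and *H19* at 854 and 6.74 CPM in null libraries A and B, which is the order that the Allantois cells of the same libraries showed.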

How the data were processed

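The authors aligned the reads to mm10 with Cell Ranger, with a tdTomato sequence added to the annotation, applied a quality filter, called doublets, and transferred cell type labels, mapped stages and label scores from a reference atlas by mutual nearest neighbours. The deposited values are raw UMI counts per gene and cell with a table of metadata, in which the deposited label score runs from 0 to 1 as a fraction and the deposited mitochondrial share of UMIs is a percent per cell. Labels of that table gave stage and sorted genotype. No sample title matched a library name, so no embryo pool was known for a library.

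Here, counts were summed per library and label, and libraries with more than 15 cells (more than 5 where stated) were compared. Of 29453 genes, 8178 (predicted Gm and Rik models, ribosomal, mitochondrial, haemoglobin and Y-linked genes, the X-inactivation RNAs and tdTomato) took no part in tests, and imprinted genes stayed in. edgeR 4.0.16 in R 4.3.3 was used (quasi-likelihood test, robust, filterByExpr, TMM factors, Benjamini-Hochberg adjustment), and genes were called at an adjusted p under 0.05 with an absolute log2 fold change over 1. DESeq2 1.42.0, RLE factors, no filter, no fold threshold and leaving out each library were alternatives. The scripts were tested on simulated counts. The members, the 13 gene lists and the tests were chosen with earlier results of these data known. Text genes were *Stat3*, *Tbx4*, *Hoxa11* and *Kdr*. To these came up to 10 called genes per direction with the largest fold change and no overlap between groups. Up to 3 genes of each list with the smallest p were taken as well. Other genes were named after their values were seen. Lack of overlap in genes taken for their fold change was thus part of the rule and is no support. Comparisons of E7.5 with E8.5, of Allantois endothelium, of stage effects with Mesenchyme and with E9.5 WT library D alone were added after the data were seen. Planned comparisons of E7.5 genotypes and of Allantois endothelium at E7.5 and E9.5 lacked libraries with enough cells and were not run. Libraries held 360 to 4327 cells.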

Additional observations from a re-analysis of the deposited data

Results flagged for a closer look

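In 32 groups of 4 or more libraries, the highest or lowest library was set against the range of its group, and 3 stood out, where chance gives about 1 in 20. The mean label score of Allantois cells in the 4 E9.5 null libraries was 0.68 in library C and between 0.81 and 0.82 in the other 3. *H19* was at 836 CPM in E9.5 null library D and at 4.28, 33.8 and 7.60 CPM in null libraries A, B and C. Allantois cells were 3.03% of E9.5 WT library D and under 1% of the other 3 WT libraries.

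For 2 genes the effect of genotype at E9.5 differed between Allantois and Mesenchyme in the edgeR interaction test. The difference was 2.35 on the log2 scale for *Fos* (adjusted p = 0.00829) and 2.47 for *Fosb* (adjusted p = 0.0364). *Fos* was not called without null library A (adjusted p = 0.0658, edgeR), and *Fosb* was not called without null library A or B or WT library A (adjusted p from 0.117 to 0.366, edgeR). *Fosb* stood in Allantois at 153 and 29.7 CPM in null libraries A and B and at 48.3, 0 and 16.0 CPM in WT libraries A, B and D, and in Mesenchyme at 65.9 and 8.41 CPM and at 108, 17.7 and 32.2 CPM. Null library A gave the highest value in Allantois for both genes.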

How the results depend on the processing

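No paired analysis was possible because no library name matches a sample title and so no shared embryo pool is known. Without the filter on low counts the calls were 15 for null against WT Allantois at E8.5, 16 at E9.5, 682 for WT E9.5 against E8.5, 421 for WT E8.5 against E7.5, 1 for Allantois endothelium, 5 and 22 for the genotype effect against Mesenchyme at E8.5 and E9.5, and 376 for the stage effect against Mesenchyme. Without a fold threshold the WT E9.5 against E8.5 calls were 471 and those of the stage effect against Mesenchyme 284. DESeq2 gave 117 for WT E8.5 against E7.5, and D as the only E9.5 WT library gave 37 for genotype, 192 for stage, 24 for the genotype effect against Mesenchyme and 1 (*Hist1h3c*, more positive at E9.5) for the genotype effect between stages.

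Leaving out 1 library at a time gave 0 to 58 calls for genotype at E8.5 (58 without null library A), 2 to 16 at E9.5, 67 to 535 for WT E9.5 against E8.5, 104 to 430 for WT E8.5 against E7.5, 1 to 8 for Allantois endothelium, 0 to 17 and 2 to 36 for the genotype effect against Mesenchyme, 21 to 377 for the stage effect against Mesenchyme and 0 to 3 for the genotype effect between stages. The log2 difference in abundance of Allantois ran from −1.69 to 0.11 at E7.5, −0.29 to 0.90 at E8.5 and −0.87 to 0.32 at E9.5, and that of Allantois endothelium from −0.44 to 1.14 at E7.5 and −1.51 to 0.70 at E8.5. The endothelial share ran from −5.47 to −2.48 points and the mapped stage from −0.0725 to 0.0462 days (0.0208 days by medians). The cause was not tested.

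Uncalled values that changed sign ran, over the libraries left out in turn, for null against WT Allantois at E8.5 from −0.10 to 0.23 for *Tbx4*, −0.34 to 0.24 for *Hoxa11* and −1.33 to 0.82 for *Kdr* (−0.13 with null cells lacking tdTomato left out). At E9.5 they ran from −0.043 to 1.04 for *Hoxa11* and −0.26 to 1.42 for *Kdr*, and with D alone *Tbx4* was at −0.24 and *Hoxa11* at −0.25. *Kdr* ran from −0.78 to 0.25 for WT E9.5 against E8.5, *Tbx4* from −0.13 to 0.31 for WT E8.5 against E7.5, and *Tbx4* in Allantois endothelium from −2.83 to 6.86. Of the other values for single genes, 709 kept their side of the threshold, 127 lost it and 4 gained it. Groups of 2 or 3 libraries and as few as 8 cells limit what could be called.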
